A study of Mus musculus with 4 samples.

Results

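The transcripts described here are 7 autosomal non-coding RNAs known from myoblasts and other cells, *Malat1*, *Neat1*, *Meg3*, *H19*, *Gas5*, *Tug1* and *Rmrp*. They were followed through every probe set whose annotation names 1 of these genes and no other. This gave 8 of 21044 tested probe sets and 5 of the 7 genes, since *Gas5* had 4 probe sets, *Malat1*, *Meg3*, *Rmrp* and *Tug1* had 1 each, and *Neat1* and *H19* were named alone by none and were not analysed here. A further probe set that names *Malat1* together with a second gene was left out. RefSeq places the genes on chromosomes 19 (*Malat1* and *Neat1*), 12 (*Meg3*), 7 (*H19*), 1 (*Gas5*), 11 (*Tug1*) and 4 (*Rmrp*), and types all of them as lncRNA except *Rmrp*, which it types as the RNase MRP RNA.

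To identify RNAs that associate with CUGBP1, a protein that binds GU-rich RNA and promotes decay of its targets, RNA was recovered from cytoplasmic lysate of C2C12 (LKO-1) cells and hybridized to Affymetrix Mouse Gene 1.0 ST arrays. The CUGBP1 immunoprecipitates were made with the monoclonal antibody CUG-BP1 (3B1) (CUGBP1 IP, 2 arrays) and the controls with normal IgG (control IgG, 2 arrays). All 4 samples came from the same untreated, proliferating cells, a mouse myoblast line that carries an empty lentiviral vector under puromycin and was kept below confluency so that it did not differentiate. No array of total input RNA was part of the comparison, so more copies of an RNA in the lysate and more of it bound per copy cannot be told apart in what follows.

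Long non-coding RNAs have no protein product and act through the proteins they bind and through where they are kept. *Malat1* is an abundant RNA of nuclear speckles, *Neat1* builds paraspeckles, and *Meg3* and *H19* are imprinted RNAs made from the maternal chromosome. *Gas5* hosts small nucleolar RNAs in its introns, and its spliced RNA begins with a 5′ terminal oligopyrimidine (TOP) tract like the mRNAs of ribosomal proteins. *Tug1* is found in both nucleus and cytoplasm, and *Rmrp* is the RNA part of RNase MRP, a nucleolar enzyme that cuts ribosomal RNA precursors.

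What an antibody to CUGBP1 brings down is the RNA itself, and UGU is the core that recurs in known CUGBP1 sites. The RefSeq start sites (GRCm38.p6) hold entries for 4 of the 7 genes, with 6 starts in all. The first 50 genomic bases from each start are shown because they are the only stretch of these RNAs that could be read here. They may run past the first exon. Capitals mark TGT, the DNA form of UGU, searched on the transcribed strand only, with overlapping matches allowed.
*Gas5*, chr1:161035166-161035215, plus strand: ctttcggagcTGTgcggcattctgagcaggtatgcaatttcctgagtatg
*Gas5*, chr1:161034601-161034650, plus strand: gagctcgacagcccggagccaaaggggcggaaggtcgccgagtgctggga
*Malat1*, chr19:5802623-5802672, minus strand: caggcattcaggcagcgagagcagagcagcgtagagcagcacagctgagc
*Meg3*, chr12:109540996-109541045, plus strand: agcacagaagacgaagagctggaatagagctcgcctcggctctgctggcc
*Meg3*, chr12:109545398-109545447, plus strand: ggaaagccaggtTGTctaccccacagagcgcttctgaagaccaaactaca
*Tug1*, chr11:3648765-3648814, minus strand: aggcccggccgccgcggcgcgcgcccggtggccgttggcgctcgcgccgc
TGT occurred in 2 of these 6 stretches, once each, at 1 start of *Gas5* and 1 of *Meg3*. Among all 32851 starts of the table, 47.7% held it in the same length. The *Gas5* start at chr1:161035166 opens with 5 pyrimidines in a row beginning with c, the form of a TOP tract. These letters describe the 5′ ends only, and the rest of each RNA was not searched.

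Values are intensities divided by the 5th percentile of the same array, so a probe set without transcript reads about 1. As a measure of background, the 1203 olfactory and vomeronasal receptor probe sets had a 95th percentile of 1.23 and 1.29 on the CUGBP1 IP arrays, and of 1.09 and 1.16 on the control IgG arrays. The control arrays were not alike. Over all tested probe sets the 95th percentile read 6.90 and 9.44 on the CUGBP1 IP arrays, against 1.94 and 4.34 on the IgG arrays, and control IgG replicate 2 was above replicate 1 for 86.3% of them. Markers of cell types were read from immunoprecipitated RNA, so they reflect recovery as well as expression and do not establish what the cells were. Above background on all 4 arrays were 7 of 10 myoblast markers, 1 of 10 markers of differentiated muscle and 2 of 29 of other tissues. *Myod1*, the muscle determination factor, read 18.8 and 23.2 on the CUGBP1 IP arrays, against 1.77 and 3.30 on the IgG arrays.

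*Malat1*, *Gas5*, *Tug1* and *Rmrp* were present in the CUGBP1 immunoprecipitates well above background, and *Meg3* was close to it. Ratios of the CUGBP1 IP mean to the control IgG mean, the signal-to-negative ratio, ran from 1.72 to 2.85 over the 5 probe sets that exceeded background on every array. The median over all 8 was 1.88, against 1.22 over all 21044. Over the 5 above background on all arrays it was 2.11, against 1.61 over all 7727 such probe sets. With the receptor median subtracted, these last medians were close, at 2.82 and 2.76. None of the 8 passed limma's test (0 higher and 0 lower at an adjusted p under 0.05, with 2 at an unadjusted p under 0.05). The same fit called 1.95% of all tested probe sets higher in the CUGBP1 IP and 0.138% lower, and 29.1% had an unadjusted p under 0.05. The lower CUGBP1 IP array exceeded the higher control array for 5 of the 8, a share of 62.5%, which is near the 66.3% of all tested probe sets. With 2 arrays against 2, an exact permutation test of a single probe set cannot give a two-sided p below 0.333.

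**Figure D1:**
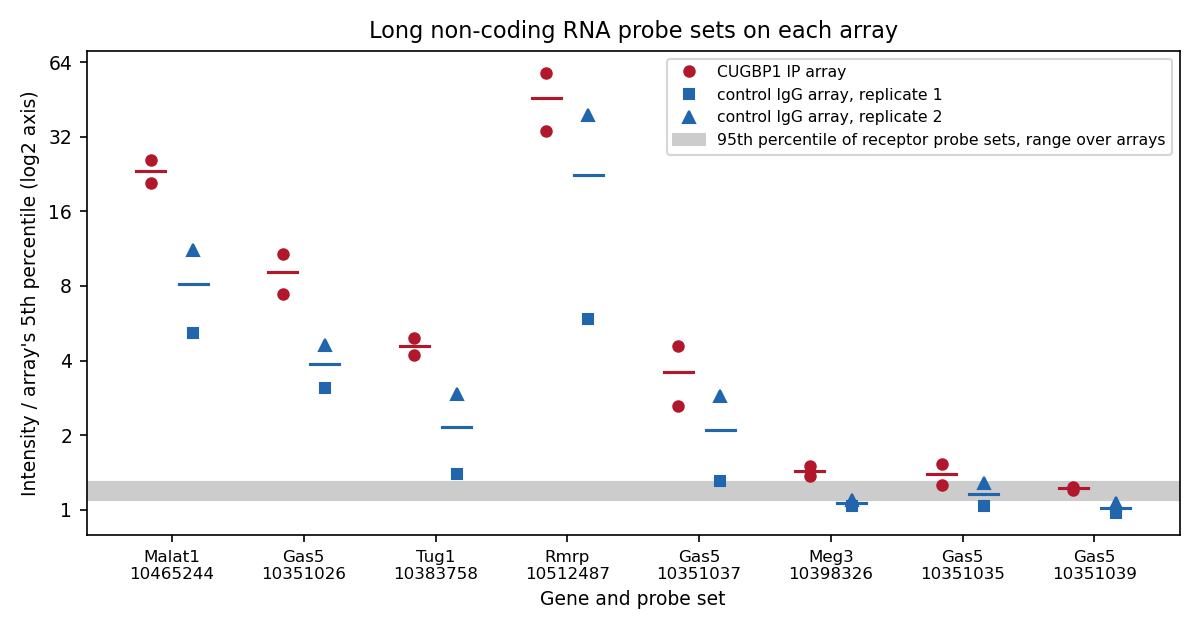
Array-scaled intensity (log2 axis, in units of each array's 5th percentile) of the 8 probe sets of *Malat1*, *Gas5*, *Tug1*, *Rmrp* and *Meg3*, with CUGBP1 IP arrays as red circles, control IgG arrays as blue squares (replicate 1) and triangles (replicate 2), and lines at the means of 2 arrays. The grey band spans the 95th percentile of receptor probe sets over the arrays, 1.09 to 1.29, and *Rmrp* shows the widest control pair, 5.91 and 39.1.

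*Malat1*, the nuclear speckle RNA (probe set 10465244) had intensities of 20.8 and 25.7 on the CUGBP1 IP arrays, against 5.19 and 11.2 on the IgG arrays. The groups did not overlap, and the lower CUGBP1 IP array was 1.86 times the higher control array. Its means were 23.3 ± 3.49 for CUGBP1 IP and 8.18 ± 4.22 for control IgG (SD, n = 2 arrays each), a ratio of 2.85 and the highest of the 8. The log2 difference was 1.60 (SE 1.35, limma adjusted p = 0.335), and 1.05 without control IgG replicate 1. *Malat1* was the 1 of the 8 in the top 5% of ratios, which by construction holds 5.0% of all tested probe sets, from a ratio of 2.57 upwards. The study also took a top 5% as associated with CUGBP1, but of its own ranking over a different set of transcripts. The paper states the enrichment of that band only in whole folds. The *Malat1* ratio here is below the lowest of these but rounds to it. *Malat1* is thus not shown to meet the study's criterion, nor to miss it, and its place in the study's own ranking is not given here. In the ranking used here *Malat1* sat at percentile 96.1, just inside the top 5%. The next of the 8, *Gas5* at 2.34, lay just outside at percentile 93.4. Without control IgG replicate 1, *Malat1* was at percentile 94.8 and no longer in the top 5%. Among the 7727 that cleared background on every array it stood at percentile 90.1, the brightest *Gas5* probe set at 83.5, *Tug1* at 77.9 and *Rmrp* at 75.5.

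*Rmrp* (probe set 10512487) was the brightest of the 8 and had the widest spread between control arrays. It read 33.7 and 58.1 on the CUGBP1 IP arrays, against 5.91 and 39.1 on the IgG arrays. The second control array was thus above the first CUGBP1 IP array, and the groups overlapped. The mean was 45.9 ± 17.2 for CUGBP1 IP and 22.5 ± 23.5 for control IgG (SD, n = 2 arrays each), a ratio of 2.04. Its log2 difference was 1.54 (SE 1.28, limma adjusted p = 0.329). Without control IgG replicate 2 the log2 difference was 2.90 and the ratio, 7.76, lay at percentile 99.01 of all tested probe sets. Without control IgG replicate 1 they were 0.18 and 1.17, at percentile 58.2.

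*Tug1* (probe set 10383758) had intensities of 4.23 and 4.91 on the CUGBP1 IP arrays, against 1.39 and 2.94 on the IgG arrays. The groups did not overlap, with 1.44 times between the closest arrays. The ratio was 2.11, at percentile 91.1, and the log2 difference 1.17 (SE 0.64, limma adjusted p = 0.186). Without control IgG replicate 1 the log2 difference was 0.63, and without control IgG replicate 2 it was 1.71.

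*Gas5*, the snoRNA host, was seen by 4 probe sets that did not read alike. The first (10351026), the only one annotated with several *Gas5* cDNAs, read 7.39 and 10.8 on the CUGBP1 IP arrays, against 3.11 and 4.64 on the IgG arrays. The groups did not overlap, with means of 9.08 ± 2.38 for CUGBP1 IP and 3.88 ± 1.08 for control IgG (SD, n = 2 arrays each). Its ratio was 2.34 and its log2 difference 1.23 (SE 1.05, limma adjusted p = 0.340). The second (10351037) read 2.63 and 4.56 on the CUGBP1 IP arrays, against 1.31 and 2.88 on the IgG arrays, so the groups overlapped. Its ratio was 1.72 (log2 difference 0.83, SE 0.54, limma adjusted p = 0.237), and 2.74 against control IgG replicate 1 but 1.25 against replicate 2. The remaining 2 were dim. Probe set 10351035 had 1.26 and 1.53 on the CUGBP1 IP arrays, against 1.03 and 1.28 on the IgG arrays, above background on 3 of the 4 arrays. Probe set 10351039 had 1.20 and 1.24 on the CUGBP1 IP arrays, against 0.970 and 1.06 on the IgG arrays, and was above background on 0 arrays, so no fold is given for it. It had the lowest limma adjusted p of the 8, 0.0870. All 3 of the dimmer probe sets carry the same RefSeq transcript as their only accession, and the part of the gene that each covers is not given in the sources used here.

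*Meg3* (probe set 10398326), of the imprinted *Dlk1*-*Dio3* region, read 1.37 and 1.5 on the CUGBP1 IP arrays, against 1.03 and 1.09 on the IgG arrays. Both CUGBP1 IP arrays were above background and neither control array was. Taking the upper end of background as the floor of each control array, *Meg3* was at least 1.27-fold higher in the CUGBP1 IP. This bound holds for the deposited scaling only. Even the plain ratio of *Meg3* was lower with the others, at 1.11 scaled to medians, 1.20 scaled to other-tissue genes and 1.16 with quantile normalization. The limma adjusted p was 0.0963. Since its control level is only a bound, *Meg3* was given no place in the order of the ratios.

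The order of the 4 genes measured above background depended on the control array they were set against. By the ratio to both control arrays it was *Malat1* (2.85), *Gas5* (2.34), *Tug1* (2.11) and *Rmrp* (2.04), with *Gas5* taken at its brightest probe set. Against control IgG replicate 1 alone *Rmrp* led with 7.76, followed by *Malat1* (4.48), *Tug1* (3.29) and *Gas5* (2.92). Against control IgG replicate 2 alone *Rmrp* came last with 1.17, after *Malat1* (2.09), *Gas5* (1.96) and *Tug1* (1.55). The CUGBP1 IP mean exceeded either control array for all 8 probe sets, as it did for 84.9% of all tested probe sets. For 4 of the 8 (*Malat1*, *Rmrp*, *Tug1* and the second *Gas5* probe set) the ratio to replicate 1 was over 1.5 times that to replicate 2, compared with 18.6% of all tested probe sets. These 4 were above background on all arrays, as were only 36.7% of all tested probe sets. The share among probe sets of like brightness was not computed, so the gap is not shown to be particular to these RNAs. Control IgG replicate 2 was above replicate 1 for each of the 8. *Malat1* was above *Gas5* and *Tug1* against either control array, while the places of *Gas5*, *Tug1* and *Rmrp* changed. The differences between genes were not tested.

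**Figure D2:**
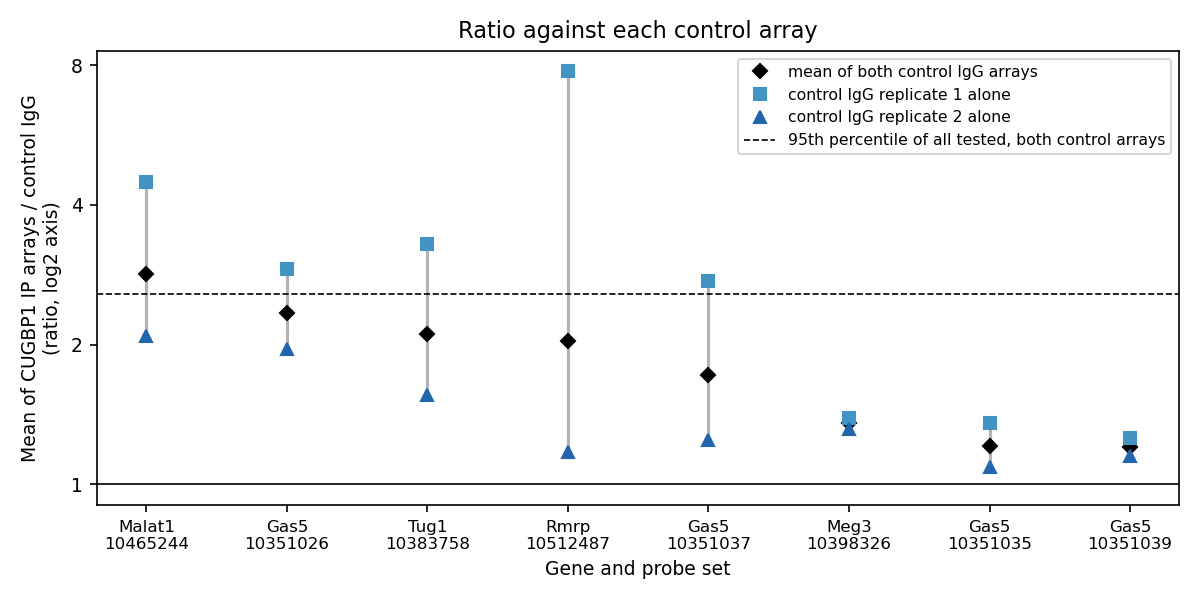
Mean of the CUGBP1 IP arrays over control IgG (ratio, log2 axis) for the 8 probe sets, against both control arrays (diamonds), replicate 1 alone (squares) and replicate 2 alone (triangles), with the dashed line at 2.57, the 95th percentile of the ratio to both controls over all tested probe sets. *Rmrp* spans 1.17 to 7.76, and the points of *Meg3* and of *Gas5* probe set 10351039, whose control arrays are within background, are not folds.

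The size of these differences also rested on how the arrays were scaled. The deposited division equalises the dim end of the arrays, and the median log2 difference of all tested probe sets was 0.29. Scaling to array medians gave 0.00, scaling to genes of other tissues 0.12 and quantile normalization -0.02. The first and second lower every probe set by the same amount. The log2 difference of *Malat1* was 1.32 and 1.43 under the first and second of these, and -0.13 with quantile normalization. The brightest *Gas5* probe set had 0.94, 1.06 and -0.40 in the same order, *Tug1* 0.88, 1.00 and 0.04, and *Rmrp* 1.25, 1.37 and 0.17. None of the 8 passed limma's test under any of these scalings, where 0 to 2 had an unadjusted p under 0.05. *Malat1* was in the top 5% under each scaling except quantile normalization, where it was at percentile 20.7.

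**Figure D3:**
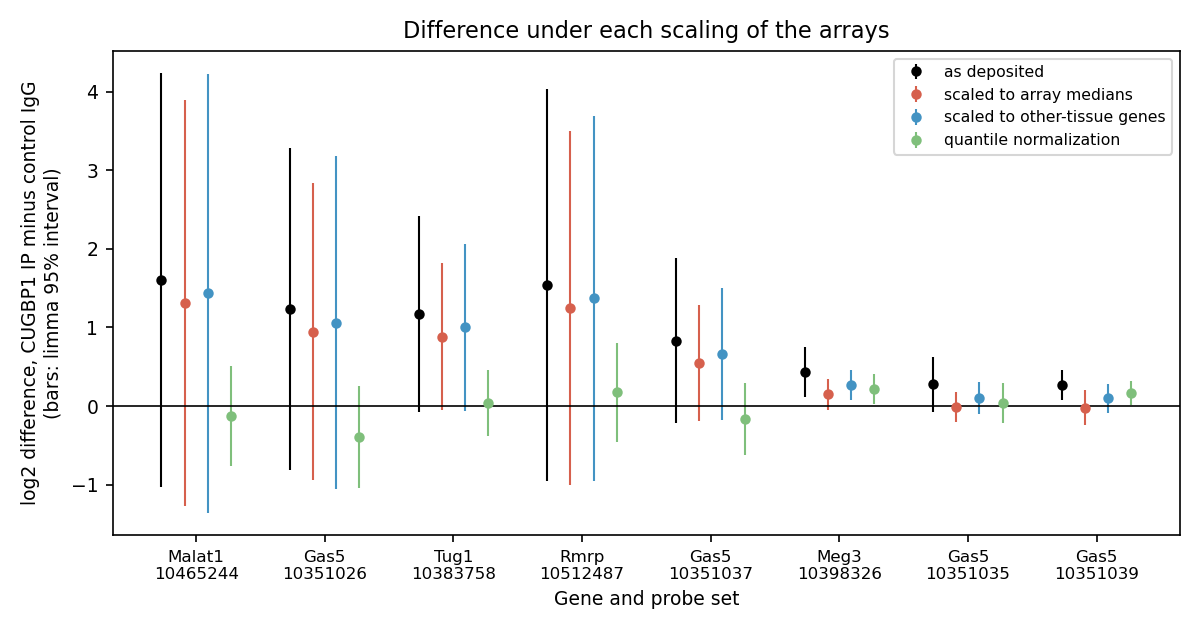
Log2 difference, CUGBP1 IP minus control IgG, of the 8 probe sets under 4 scalings of the arrays (colours), with limma's 95% intervals as bars. The quantile-normalized points lie near 0, from -0.40 for the brightest *Gas5* probe set to 0.22 for *Meg3*, below the deposited ones for every probe set. *Meg3* and *Gas5* probe set 10351039 have control arrays within background.

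Other non-coding RNAs on the array gave a wider range. Of 18 other autosomal non-coding RNAs with a probe set of their own, 7 were above background on all 4 arrays, 1 rose, 1 fell, and the lower CUGBP1 IP array exceeded the higher control array for 9. Over all genes 36.3% were above background on all arrays, 1.94% rose, 0.134% fell and 67.1% had their groups apart, so the 9 of 18 are below the general share. *Norad*, a cytoplasmic RNA that binds Pumilio proteins, read 75.0 and 71.7 on the CUGBP1 IP arrays, against 6.41 and 21.7 on the IgG arrays. Its ratio of 5.21 was the highest of the 18 and above those of *Malat1*, *Gas5*, *Tug1* and *Rmrp* against both control arrays, but it missed the threshold (limma adjusted p = 0.152). It was 11.4 against control IgG replicate 1 alone and 3.38 against replicate 2 alone. The probe set number of *Norad* lies among those of genes on another chromosome. Where this probe set maps was not checked, so its reading may not be of *Norad* alone. The risen one was *Snhg17*, a snoRNA host like *Gas5*, with 2.34 and 8.09 on the CUGBP1 IP arrays, against 1.19 and 1.59 on the IgG arrays (log2 difference 1.66, limma adjusted p = 0.0484). *Rny1*, a Y RNA bound by the Ro protein, read 7.44 and 14.8 on the CUGBP1 IP arrays, against 2.13 and 3.67 on the IgG arrays (limma adjusted p = 0.179). *Snhg5*, another snoRNA host, had a log2 difference of 0.87 (limma adjusted p = 0.328), and of -0.43 with quantile normalization, 0.31 without control IgG replicate 1 and 1.43 without control IgG replicate 2. The fallen one was *Dleu2*, a host of microRNAs, at 0.910 and 0.900 on the CUGBP1 IP arrays, against 1.00 and 1.02 on the IgG arrays, which is not above background on any array. *Snhg17* was not called with quantile normalization (limma adjusted p = 0.2998) or among the probe sets above background (0.0564), and its log2 difference was 0.77 without CUGBP1 IP replicate 2 and 2.56 without CUGBP1 IP replicate 1. *Dleu2* was not called with quantile normalization (limma adjusted p = 0.0863) or scaling to medians (0.203). The median log2 difference was 1.23 for the 5 genes, 4 of them above background on all arrays, and 0.27 for these 18, against 0.29 over all genes and 0.73 over the 7727 probe sets that cleared background throughout.

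Transcripts linked to *Gas5* and *Rmrp* were compared next, with 1 probe set per gene. Of 24 TOP and snoRNA host mRNAs, 0 were called by limma, with 2 at an unadjusted p under 0.05. Their median log2 difference was 0.91, below the 1.23 of the brightest *Gas5* probe set. It was above the second *Gas5* probe set, at 0.83, and above the dim ones, at 0.27 each. *Npm1*, a nucleolar chaperone of ribosome assembly, had the largest difference of the 24 at 2.05 (limma adjusted p = 0.244), followed by the elongation factors *Eef2* at 1.71 and *Eef1a1* at 1.39. Without control IgG replicate 1 these were 1.26, 0.77 and 0.39, and without control IgG replicate 2 they were 2.85, 2.65 and 2.40, in the same order. The groups were apart for 8 of these 24, below the 67.1% of all genes, and 29.4% of all genes had an unadjusted p under 0.05. Of 11 protein subunits of RNase MRP and its relative RNase P, 0 were called, with 2 at an unadjusted p under 0.05. Their median was 0.38, and *Pop7*, *Rpp30* and *Rpp38* had the largest differences, of 0.74, 0.67 and 0.67. With quantile normalization those of *Rpp30* and *Rpp38* were below 0, and without control IgG replicate 1 they were 0.29 and 0.37. That of *Rpp30* was 0.39 without CUGBP1 IP replicate 2 and 1.06 without control IgG replicate 2.

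Transcripts for proteins that bind these RNAs, or that share their nuclear bodies, had median log2 differences close to those of *Tug1* and *Gas5*. Of 16 paraspeckle and nuclear speckle proteins, 0 were called, with 6 at an unadjusted p under 0.05, and 7 were in the top 5% of ratios. Over all genes, 29.4% had an unadjusted p under 0.05 and 4.97% were in that top 5%. All 16 were above background on all arrays, against 36.3% of all genes. Among probe sets above background on all arrays the 95th percentile of the ratio was 4.01, above the highest of the 16, 3.93. The splicing proteins *Rnps1*, *Srsf3* and *Hnrnpk* had the largest differences, of 2.06, 1.90 and 1.83, and the list median was 1.16. That of *Hnrnpk* was 1.04 without control IgG replicate 1. The probe set numbers of *Rnps1*, *Srsf3* and *Hnrnpk* lie among those of genes on other chromosomes. Where these probe sets map was not checked, so their readings may not be of these genes alone. Of 9 other proteins reported to bind long non-coding RNAs, *Jarid2*, a partner of Polycomb repressive complex 2, rose. It read 2.57 and 4.19 on the CUGBP1 IP arrays, against 1.08 and 1.47 on the IgG arrays (log2 difference 1.38, SE 0.40, limma adjusted p = 0.0392), with the first control array within background. *Jarid2* was not called with quantile normalization (limma adjusted p = 0.0566). *Elavl1*, which encodes HuR, had a ratio of 4.37 and *Rbbp4* one of 4.34, with limma adjusted p-values of 0.106 and 0.171. *Ezh2*, the methyltransferase of that Polycomb complex, had a log2 difference of 1.54, and of -0.02 with quantile normalization. Of 9 imprinted or neighbouring genes of *Meg3* and *H19*, 0 were called and 0 had an unadjusted p under 0.05, with a median of 0.34. *Igf2*, the paternally expressed neighbour of *H19*, read 1.76 and 1.47 on the CUGBP1 IP arrays, against 1.19 and 1.22 on the IgG arrays. *Lsp1* and *Mrpl23* had the largest differences there, 0.94 and 0.63. With quantile normalization *Igf2*, *Lsp1* and *Mrpl23* were below 0. Without control IgG replicate 1 *Lsp1* was at 0.34 and *Mrpl23* at -0.088, and without control IgG replicate 2 they were at 1.54 and 1.34.

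**Figure D4:**
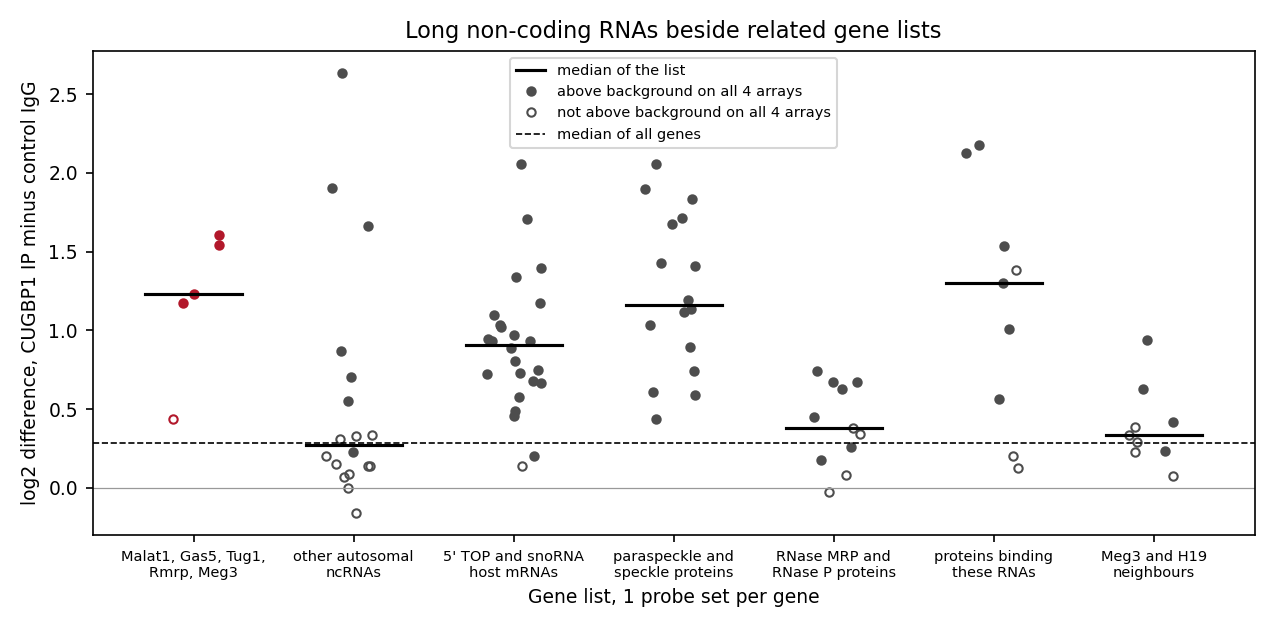
Log2 difference, CUGBP1 IP minus control IgG, of each gene of 7 lists (1 probe set per gene; filled points are above background on all 4 arrays), with a line at each list's median and a dashed line at the median of all genes, 0.29. The 5 non-coding RNAs have a median of 1.23, the 18 other non-coding RNAs 0.27, with *Norad* the highest point at 2.64. Where the *Norad* probe set maps was not checked.

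For the 5 that cleared background on every array, the genes with the most similar pattern were sought among 7063 others by the Euclidean distance of log2 values centred on each gene's mean over the 4 arrays. With 4 arrays this is a description of shape only. The nearest to *Malat1* were *Lyrm4* (distance 0.044) and *Znrf2* (0.056), and to *Tug1* they were *Txndc5* (0.042) and *Vdac2* (0.051). The probe set number of *Vdac2* lies among those of genes on another chromosome, and where it maps was not checked. The brightest *Gas5* probe set was nearest to *Lysmd3* (0.052) and *Ccnk* (0.063). Its second probe set was nearest to *Ndufb9* (0.028) and to the snoRNA host *Snhg5* (0.037). *Rmrp* had the most distant neighbours, *Ost4* (0.13) and *Banf1* (0.26). *Ost4* shares its wide control pair, with 6.43 and 10.9 on the CUGBP1 IP arrays, against 1.25 and 7.75 on the IgG arrays.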

How the data were processed

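RNA of 2 CUGBP1 IP and 2 control IgG samples was hybridized to 1 array each. The deposited table holds linear probe set intensities, which the authors divided by each array's own 5th percentile. For the summarising program and any background correction, the sources used here give nothing. Of 25175 probe sets, 21044 named exactly 1 gene in the platform annotation and were tested, 1492 named several and 2639 none. Symbols of 20959 were updated through gene identifiers of RefSeq (GRCm38.p6), used for names and chromosomes only.

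Groups and replicate numbers were taken from the sample titles. Nothing says that replicates came from separate cultures, so p-values rest only on spread between these samples, which may be technical. The number of arrays limits the precision. The signal-to-negative ratio was computed as in the study's methods. Log2 intensities were compared with limma 3.58.1 in R 4.3.3 (eBayes with an intensity trend, two-sided, Benjamini-Hochberg over all tested probe sets, threshold 0.05), without offset or filter. The code of the fit was first run on simulated data. The changes simulated were larger than any difference of the non-coding RNAs described here, so that run does not show whether differences of their size can be detected. Log2 differences were taken as CUGBP1 IP over control IgG, and SE is the moderated one. It follows limma's trend of variance over probe sets of similar intensity, not the spread of a probe set's own arrays. *Rmrp*, with the widest control pair, had a smaller SE (1.28) than *Malat1* (1.35). Background is the 95th percentile of receptor probe sets. All probe sets naming 1 member gene are described. From each other list the called genes were named, and otherwise up to 3 with the largest differences above background on all arrays. The brightest probe set stands for a gene in lists, and the 2 nearest patterns are given. An X-linked entry was removed from the list of other autosomal RNAs after the data were seen. The members, lists and tests were chosen with earlier results of these data known. Alternatives covered scaling, offset, filter, variance trend, background level and subtraction, replicate block and each array left out.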

Additional observations from a re-analysis of the deposited data

How the results depend on the processing

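The 0 calls among the 8 probe sets of the non-coding RNAs stood under each scaling, with an offset of 1 and with the filter on background. The fits without the intensity trend or with an array left out made 0 calls over all probe sets, so they say nothing about single genes. With the replicate number as a block limma called 5 of them (the 3 dimmer *Gas5* probe sets, *Meg3* and *Tug1*), among 11809 probe sets called higher in all. Same-numbered arrays deviated together (r = 0.64 over probe sets), but 2 pairs that share only a number do not show a pairing. The count of higher calls over all probe sets was 411 as deposited, 1362 with scaling to medians, 2275 with scaling to other-tissue genes, 763 with an offset of 1, 270 of the 7727 probe sets above background, and 0 without the intensity trend (4757 at an unadjusted p under 0.05). The count of lower calls was 29, and 18 with quantile normalization, 84 with scaling to other-tissue genes, 0 with the filter on background and 0 without the trend (unadjusted p under 0.05 in 0 of each). When any array was left out, higher and lower calls numbered 0 in each of the 4 fits, with 1062 to 6085 at an unadjusted p under 0.05, and such a fit has 1 residual degree of freedom. The lower CUGBP1 IP array exceeded the higher control array for 5 of the 8 (66.3% of all probe sets), for 2 with quantile normalization (19.4%), for 3 of the 5 above background (78.0%), and for 5 to 8 with an array left out (68.3% to 89.0%). Quantile normalization turned the log2 difference of *Malat1* to -0.13 and of *Gas5* to -0.40 and -0.17, and scaling to medians, which lowers every probe set by the same amount, left the 2 dimmest *Gas5* probe sets, which lie at or near background, at -0.014 and -0.022. Quantile normalization makes the bright ends of the arrays equal by construction. The median ratio of 1.88 ran from 1.02 with quantile normalization to 2.83 without control IgG replicate 2. Subtracting the receptor median gave ratios of 3.11 for *Malat1*, 3.10 for *Tug1*, 2.82 and 2.39 for *Gas5* and 2.09 for *Rmrp*, with a median of 2.82, close to the 2.76 over all probe sets above background on all arrays. The number above background was 5 at the 99th percentile of receptors as well. For the other named genes the same alternatives were chosen after seeing the data. Quantile normalization put the log2 difference below 0 for *Snhg5* (-0.43), *Rpp30* (-0.070), *Rpp38* (-0.041), *Ezh2* (-0.019), *Lsp1* (-0.68), *Mrpl23* (-0.71) and *Igf2* (-0.091), and *Mrpl23* ran from -0.088 without control IgG replicate 1 to 1.34 without replicate 2.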
